A study of Mus musculus with 9 samples.

Results

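The genes examined here encode enzymes that make cholesterol and fatty acids, together with the proteins that sense, store and export sterol. They came from a list of 35 gene symbols grouped by function. Of these, 34 were found among the 23309 gene symbols of the data, and the missing symbol, Msmo1, is the current name of Sc4mol, which was found. A gene was tested when its mean over all libraries was at least 1 FPKM (fragments per kilobase of transcript, scaled to the mapped fragments of the library), which 32 of the 34 genes passed, of 10497 genes in all. The 2 genes under this filter were Hmgcs1, listed at 0 in all 9 libraries, and Abcg1, which was below 1 FPKM in every library. Abca1 passed with a mean of 1.35 FPKM only because it was high on BME at day 5. The cells, D2.0R, belong to an established mouse mammary tumour line. They stop dividing on basement membrane extract (BME) and divide when the matrix also holds type I collagen (COL1). There were 9 RNA libraries, 3 cultures each of BME day 1, BME day 5 and BME + COL1 day 5, lettered a to c within a group. All cultures were of the same unmodified line in low-glucose medium with reduced serum, without drug treatment. The design has no day 1 culture on BME + COL1, so in the comparison of BME + COL1 day 5 with BME day 1 the matrix and the time changed together.

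Cholesterol is built from acetyl-CoA by way of mevalonate, isoprenoid units, squalene and lanosterol. The transcription factor SREBP2, encoded by Srebf2, switches on the genes of this route when sterol in the endoplasmic reticulum falls. Its relative SREBP1, encoded by Srebf1, acts mainly on fatty acid genes. Both precursors are escorted to the Golgi by Scap and held back by the Insig proteins. Surplus sterol is esterified by Soat1, and its oxidised derivatives activate the liver X receptors (LXR), of which Nr1h2 encodes the beta form. These receptors raise the exporters Abca1 and Abcg1 and also Srebf1.

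Sequence aligned to transcripts came to 7.21 to 9.37 gigabases per library. For the 26 tested genes of the list with a single transcript, the interval that Cufflinks attached to a value lay at most 15.1% to either side. For Abcg1, under that filter, it lay 14.5% to 108% to either side. Replicate b of BME day 5 stood apart from its group. Its median gene lay at -0.27 on the log2 scale from the mean over the 9 libraries, whereas a and c lay at -0.03 and -0.04. It also held 225 FPKM of the nuclear RNA Neat1, against 54.1 in a and 60.9 in c. Malat1, another nuclear RNA, was 1.32 higher on the log2 scale in BME than in BME + COL1 at day 5. Replicate c of BME + COL1 held 3105 FPKM of the ribosomal RNA precursor Rn45s, whereas the other libraries held 102 to 201. Of 8 mammary epithelial markers, Krt8 and Krt18 had 362 FPKM or more in all libraries, Cdh1, Krt14 and Krt7 were lower but above 1 FPKM in each, Epcam reached at most 1.59 FPKM, and Krt19 and Krt5 stayed under 1 FPKM. Their summed level was 785 to 1170.1 FPKM on BME at day 5 and 2364 to 2471 FPKM on BME + COL1, with Krt8 1.41, Krt18 1.19 and Cdh1 0.92 lower on BME. Of the other lists, 6 of 7 haematopoietic, 4 of 4 endothelial, 3 of 5 fibroblast and 4 of 5 adipocyte markers stayed under 1 FPKM in every library. Cd3e and Lum were among those listed at 0 throughout. The summed adipocyte markers reached 2.62 to 3.68 FPKM on BME at day 5 and at most 0.75 elsewhere, nearly all of it Fabp4. The fibroblast marker Pdgfra had 20.6, 17.5 and 22.6 FPKM on BME at day 5 and 2.74, 2.72 and 2.69 FPKM on BME + COL1, and the macrophage marker Cd68 was 1.44 higher on BME. The part of these markers and RNAs in the results below was not tested.

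**Figure D1:**
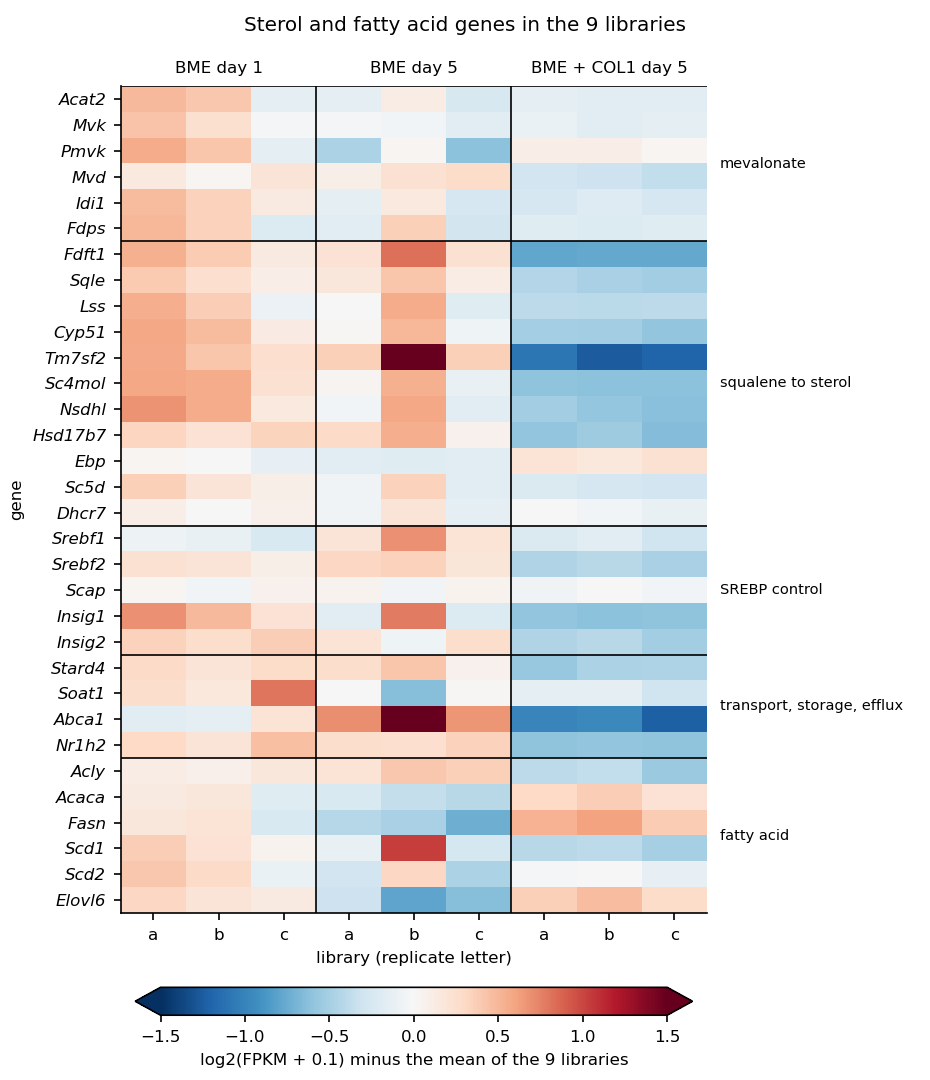
Level of each of the 32 tested genes (rows, grouped by role) in the 9 libraries (columns), as log2(FPKM + 0.1) minus the gene's mean over the libraries. Red is above and blue below that mean, and the colours stop at 1.5 in either direction. Most sterol genes were lowest on BME + COL1, whereas Fasn, Elovl6, Acaca and Ebp had their highest group mean there, and replicate b of BME day 5 was the most intense column for Tm7sf2, Abca1, Insig1 and Scd1.

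The comparison of BME with BME + COL1 at day 5 asks which of these genes differ between resting and proliferating cultures of the same age. Of the late sterol pathway 8 of 11 genes, and of SREBP control 4 of 5, were higher on BME, and the central fatty acid genes Fasn, Acaca and Elovl6 were lower. Calls rest on an adjusted p from limma under 0.05, over all 10497 genes, and SE below is the standard error of a log2 difference. It rests on a spread between cultures that limma pools over all 3 groups, so a gene has the same SE in all 3 comparisons. Of the 32 tested genes, 17 (53.1%) were called higher and 4 (12.5%) lower on BME, and 11 were not called. Over all tested genes 30.3% were called higher and 45.3% lower. The median log2 difference was 0.56 for the 32 genes and -0.18 for all genes. In bulk RNA a smaller share of cells with a transcript and less transcript per cell cannot be told apart. All 10 cell cycle genes examined were lower on BME (log2 differences of -1.51 to -2.98), and their part in these differences was not tested.

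The scale on which libraries are compared matters here. The median of all genes was -0.18 with FPKM, 0.16 when the values were rescaled to a common total per library (TPM), 0.19 on the TPM scale without genes under 300 nt and -0.00 with median-ratio factors. With TPM 46.3% of all genes were called higher and 31.7% lower, without short genes 48.4% and 30.9%, with median-ratio factors 39.5% and 39.6%, and with quantile normalization 36.1% and 40.4%. Under these 4 scalings 20 to 23 of the 32 genes were called higher, including all 17 called with FPKM, and 2 or 3 were called lower. Sc5d, Scap and Scd1 gained a call as higher under each of them, Idi1 and Dhcr7 under all but median-ratio factors, Mvk with TPM and without short genes, and Fdps with quantile normalization. Relative to the median of all genes, the 17 genes of sterol synthesis lay 0.70 higher and the 6 fatty acid genes 0.19 lower.

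**Figure D2:**
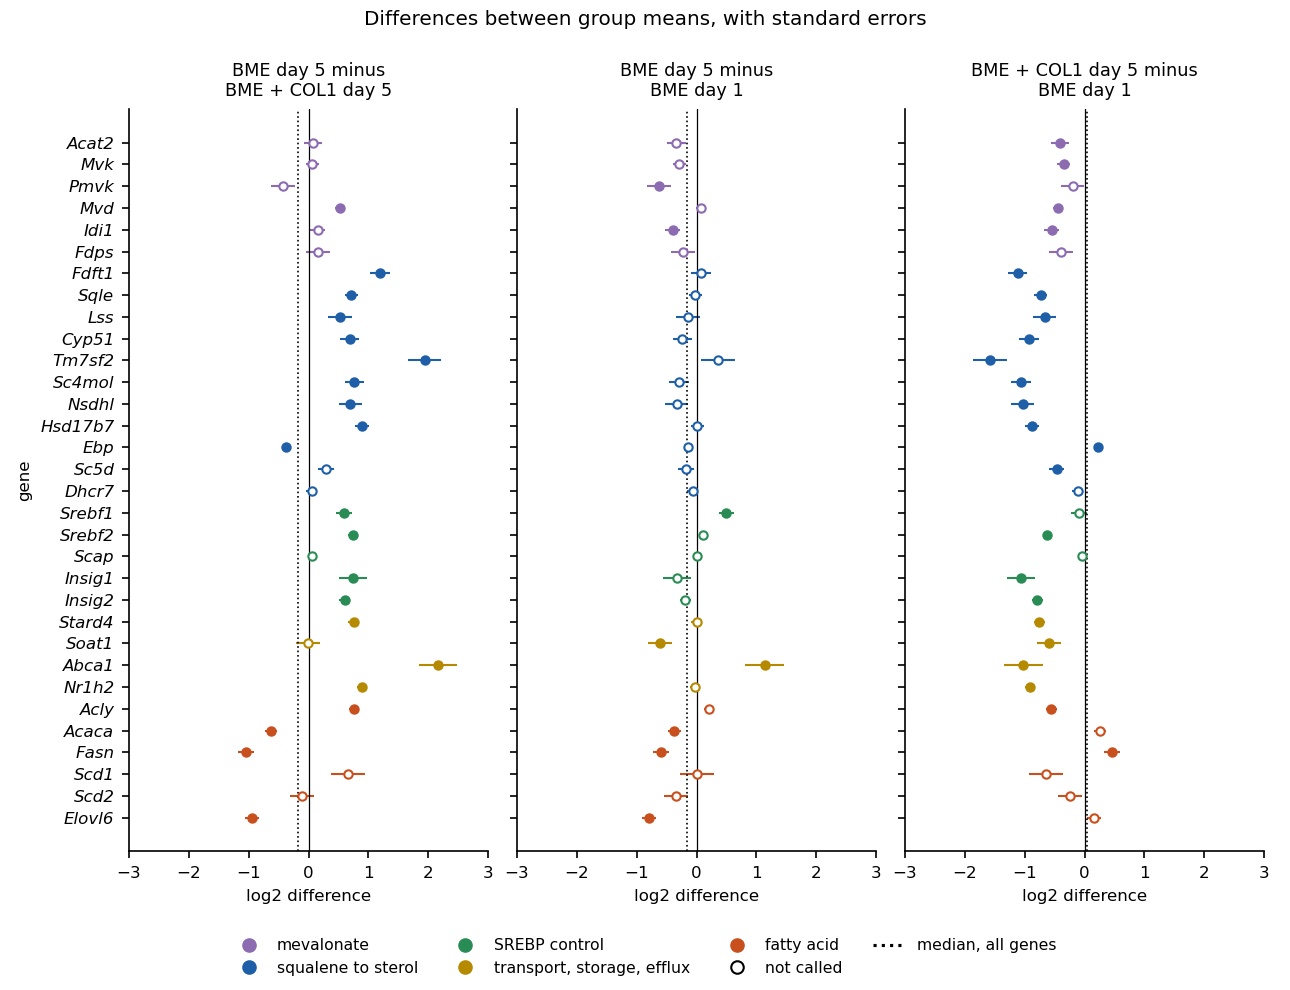
Log2 difference between group means for each tested gene (rows) in the 3 comparisons (panels), with standard errors from limma as bars, filled where the adjusted p was under 0.05 and open where it was not. The dotted line is the median of all 10497 genes. On the left, genes of the squalene-to-sterol segment lie mostly between 0.5 and 2, and Fasn, Elovl6 and Acaca lie between -0.6 and -1.1.

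The mevalonate segment differed little. Of its 6 tested genes, 1, Mvd, was called higher on BME and the other five were not called, with a segment median of 0.11. With TPM and without short genes Mvk and Idi1 were also called higher (0.40 to 0.52), and with quantile normalization Idi1 and Fdps (0.55 and 0.60). Mvd, which decarboxylates mevalonate diphosphate to the first isoprene unit (mm9, chr8:124957496-124967322), had 216, 201 and 224 FPKM in replicates a, b and c on BME at day 1. It had 209, 230.3 and 238 FPKM on BME at day 5 and 161, 158 and 152 FPKM on BME + COL1. The BME day 5 libraries all lay above those on BME + COL1, by 0.52 on the log2 scale (SE 0.08, limma adjusted p = 0.000356). Pmvk, the phosphomevalonate kinase (chr3:89263040-89272931), ran the other way without a call, with 19.5, 27.5 and 17.6 FPKM on BME at day 5 and 29.0, 29.0 and 27.7 FPKM on BME + COL1 (difference -0.43, SE 0.20, limma adjusted p = 0.0717). It was called lower without replicate b of BME day 5 (-0.62), without replicate c of BME day 1 and with a replicate block (both -0.43). Hmgcs1, which joins acetyl-CoA to acetoacetyl-CoA, carried 2 annotated copies on an unplaced chromosome 13 contig, both listed at 0, and nothing can be said of its level.

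From squalene onward most genes were higher on BME. Of 11 tested genes, 8 were called higher, 1, Ebp, was called lower, and Sc5d (0.29) and Dhcr7 (0.05) were not called. Under the other scalings Sc5d was called higher at 0.48 to 0.66, and Dhcr7 at 0.34 to 0.42 in 3 of the 4. The segment median was 0.70. The largest difference was that of Tm7sf2, a reductase of the C14 double bond of the sterol nucleus (chr19:6062821-6067850). It had 8.86, 20.9 and 8.87 FPKM on BME at day 5 against 3.21, 2.86 and 2.96 FPKM on BME + COL1. All BME libraries were above all BME + COL1 libraries, and replicate b was far above the others (log2 difference 1.94, SE 0.28, limma adjusted p = 0.000176). Without replicate b the difference was 1.53 (limma adjusted p = 1.06e-06).

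Sqle, squalene epoxidase and a rate-limiting enzyme of the late pathway (chr15:59146647-59162748), had 73.3, 87.1 and 70.3 FPKM on BME at day 5 against 48.0, 46.7 and 45.5 FPKM on BME + COL1. The groups did not overlap, and the difference was 0.71 (SE 0.11, limma adjusted p = 0.000196). The genes that demethylate the sterol nucleus moved with it. Cyp51, the lanosterol C14 demethylase, was 0.69 higher, Sc4mol, the C4 methyl oxidase, 0.76, Nsdhl, the C4 decarboxylating dehydrogenase, 0.70, and Hsd17b7, the ketone reductase of the same complex, 0.89. Lss, the lanosterol cyclase, was 0.52 higher, a call that was lost without replicate b (0.31, limma adjusted p = 0.101). It was also lost without replicate b of BME day 1, without any of the BME + COL1 replicates and without the filter on low values (limma adjusted p of 0.0361 as reported and 0.0531 to 0.101 where lost). Ebp, the sterol isomerase that follows (chrX:7762457-7770638), had 23.8, 23.6 and 23.8 FPKM on BME at day 5 and 31.0, 29.9 and 31.4 FPKM on BME + COL1. It was 0.37 lower on BME with FPKM and was not called under any of the 4 other scalings (-0.19 to -0.00).

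Fdft1, squalene synthase (chr14:63763988-63796630), had 35.5, 54.4 and 35.8 FPKM on BME at day 5 and 17.8, 18.0 and 17.8 FPKM on BME + COL1, a difference of 1.19 (SE 0.16, limma adjusted p = 0.000124). It shares 773 nt of exon, 27.0% of its transcript, with the cathepsin gene Ctsb on the opposite strand. Ctsb had 249, 298 and 264 FPKM on BME at day 5 and 107, 108 and 108 FPKM on BME + COL1, a difference of 1.32. Without knowledge of the strand setting in the counting, reads of the shared stretch cannot be told apart, so the value of Fdft1 is uncertain. Among the other tested genes, overlaps with a neighbour came to at most 6.06% of the transcript.

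The start regions that RefSeq gives for the listed genes in build GRCm38.p6 were searched for motifs, whether or not a gene was called. The windows span 250 bases before to 50 after each annotated start. Of the 34 genes, 27 had an entry, 1 of them (Sc4mol) under its current symbol, with 35 windows in all. Letters were matched on both strands. CCAAT, the box bound by NF-Y, a partner of SREBP, was in 77.8% of the 18 windows of sterol synthesis genes and in 14 of the 15 genes, all but Acat2. Over all 32851 windows the share was 37.4%, and over windows of tested genes 38.0%. GGGCGG, bound by Sp1, was in 83.3% of the sterol windows, 35.7% of all windows and 65.4% of windows of tested genes. The E-box CACGTG was in 16.7%, 7.15% and 10.3%, respectively. The inner 8 letters of the classical sterol regulatory element, CACCCCAC, were in the windows of Hmgcs1 and Acat2 (11.1% of sterol windows) and in 2.87% of all windows, and the full 10-letter form was in no window of the list. Of the 4 windows of fatty acid genes, those of Acly and Fasn held CCAAT. The window of Ebp, which did not move with its pathway, held both CCAAT and GGGCGG. A match is a run of letters only, not a bound site.

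The 150 bases just upstream of the start are shown for Mvd and Tm7sf2, the genes with the largest called differences of the early and late sterol route, for the regulator Srebf2, and for Fasn, which went the other way. They are written 5′ to 3′ along the gene's own strand in lower case, with CCAAT (or its complement ATTGG) and GGGCGG (or CCGCCC) in capitals.
Mvd, chr8:122443423-122443572, minus strand: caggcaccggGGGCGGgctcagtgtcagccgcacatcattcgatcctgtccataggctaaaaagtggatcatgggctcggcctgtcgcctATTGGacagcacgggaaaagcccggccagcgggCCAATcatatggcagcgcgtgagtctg
Tm7sf2, chr19:6067851-6068000, minus strand: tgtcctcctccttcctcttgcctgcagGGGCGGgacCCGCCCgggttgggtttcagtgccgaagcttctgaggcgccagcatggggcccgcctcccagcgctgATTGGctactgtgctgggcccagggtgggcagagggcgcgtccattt
Srebf2, chr15:82147119-82147268, plus strand: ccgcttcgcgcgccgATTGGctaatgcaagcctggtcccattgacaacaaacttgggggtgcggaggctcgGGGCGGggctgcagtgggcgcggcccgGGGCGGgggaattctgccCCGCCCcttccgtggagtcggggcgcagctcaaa
Fasn, chr11:120824548-120824697, minus strand: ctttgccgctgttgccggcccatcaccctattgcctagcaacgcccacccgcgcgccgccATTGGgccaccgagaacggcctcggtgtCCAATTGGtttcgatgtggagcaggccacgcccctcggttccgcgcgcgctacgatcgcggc
The Fasn stretch holds 3 CCAAT matches, the last 2 of which overlap, and no GGGCGG, whereas Tm7sf2 holds 1 CCAAT and 2 GGGCGG and Mvd 2 and 1.

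Of the 5 genes of SREBP control, 4 were called higher on BME and Scap, the escort protein, was not (0.05). Scap was called higher under all 4 other scalings (0.24 to 0.42). Srebf2 (mm9, chr15:81977699-82035390) had 41.8, 42.9 and 38.1 FPKM on BME at day 5 and 24.6, 25.1 and 24.0 FPKM on BME + COL1, with groups far apart. It was 0.73 higher (SE 0.08, limma adjusted p = 1.99e-05). Srebf1 (chr11:60012591-60034106) had 38.5, 54.3 and 38.8 FPKM against 28.9, 30.1 and 27.3 FPKM, and was 0.59 higher (SE 0.13, limma adjusted p = 0.00229). Insig1, itself a target of SREBP and a brake on it (chr5:28397952-28405202), had 51.6, 99.1 and 50.3 FPKM against 38.4, 37.7 and 37.9 FPKM. Replicate b stood well above the others, and the difference was 0.74 with it (SE 0.24, limma adjusted p = 0.0165) and 0.42 without it (limma adjusted p = 0.00705). Insig2, the second brake, was 0.60 higher, and there replicate b was the lowest of the 3 BME libraries (12.8, 10.5 and 13.3 FPKM).

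Of 4 tested genes of transport and efflux, 3 were called higher on BME, among them Abca1, which was tested only through its high BME day 5 values, and Soat1, which esterifies cholesterol for storage, was not (-0.02). Abca1, the exporter of cholesterol to lipid-poor apolipoprotein (chr4:53043661-53172767), had 1.75, 4.29 and 1.70 FPKM on BME at day 5 against 0.473, 0.481 and 0.389 FPKM on BME + COL1. The groups were separate at a low level, with a difference of 2.16 (SE 0.32, limma adjusted p = 0.000205), and 1.74 without replicate b (limma adjusted p = 2.18e-05). With a pseudocount of 0.1 FPKM such a difference understates the ratio of low values. Abcg1, which exports sterol to high-density lipoprotein (chr17:31194639-31254926), had 0.42, 0.618 and 0.483 FPKM on BME at day 5, against 0.0113, 0.0203 and 0.0134 FPKM on BME + COL1 and 0.0333, 0.0166 and 0.0265 FPKM on BME at day 1. It was under the filter of 1 FPKM. In the fit without a filter it was 2.39 higher on BME (SE 0.12, limma adjusted p = 3.41e-06), and 2.26 higher than at day 1. It was above 0.4 FPKM in the 3 BME day 5 libraries and under 0.04 in the other six. Nr1h2, the LXR beta gene (chr7:51805003-51809293), had 17.5, 17.4 and 18.5 FPKM against 9.60, 9.61 and 9.55 FPKM, with a difference of 0.89 (SE 0.08, limma adjusted p = 7.26e-06). Stard4, a cytosolic sterol carrier, was 0.75 higher, with 15.9, 17.5 and 13.8 FPKM against 8.83, 9.42 and 9.48 FPKM.

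**Figure D3:**
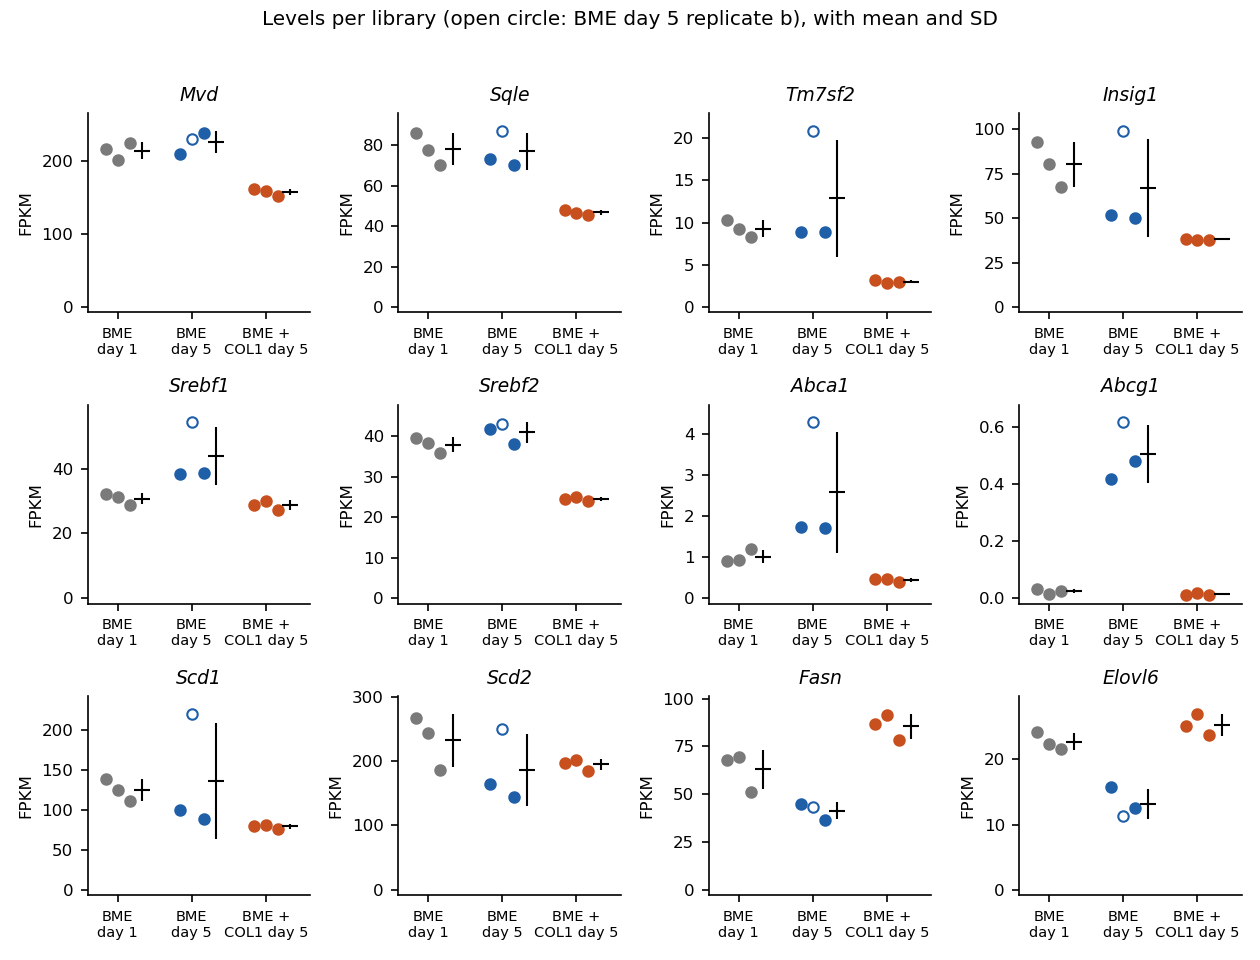
FPKM of 12 genes in each library (circles) by group, with the mean and SD of 3 cultures (black). The open circle is replicate b of BME day 5, which is the highest of all 9 libraries for Tm7sf2, Insig1, Srebf1, Abca1, Abcg1 and Scd1. It is also the highest, by a small margin, for Sqle and Srebf2, but not for Mvd, Scd2, Fasn or Elovl6. Fasn and Elovl6 are lower in all BME day 5 libraries than in all others.

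The fatty acid genes split. Fasn, the synthase that builds palmitate (chr11:120667272-120685861), had 44.9, 43.1 and 36.3 FPKM on BME at day 5 and 86.7, 91.6 and 78.5 FPKM on BME + COL1. The groups were far apart and replicate b lay with the other BME libraries. Fasn was 1.05 lower on BME (SE 0.13, limma adjusted p = 7.67e-05), and -0.61 to -0.87 under the 4 other scalings, with a call in each. Elovl6, which elongates palmitate (chr3:129235304-129341411), had 15.7, 11.3 and 12.5 FPKM against 25.1, 27.0 and 23.7 FPKM, and was 0.95 lower (SE 0.12, limma adjusted p = 6.53e-05). Acaca, the carboxylase that makes malonyl-CoA, was 0.63 lower, a call that was lost without genes under 300 nt (-0.26). Acly, which makes cytosolic acetyl-CoA for both routes, went the other way. It had 232, 264 and 257 FPKM on BME at day 5 against 152, 156 and 136 FPKM, and was 0.76 higher (SE 0.09, limma adjusted p = 4.19e-05).

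The stearoyl-CoA desaturases, which introduce the double bond of oleate, varied most through replicate b. Scd1 (chr19:44468940-44482199) had 99.7, 221 and 89.1 FPKM on BME at day 5 and 80.4, 81.6 and 75.9 FPKM on BME + COL1. The groups did not overlap, but replicate b was far above the others and the difference of 0.66 was not called (SE 0.28, limma adjusted p = 0.0586). It was called at 0.25 without replicate b (limma adjusted p = 0.0328) at 0.82 and 0.90 without a or c, at 0.84 to 1.09 under the 4 other scalings and with a replicate block (limma adjusted p = 0.0434). Scd2 (chr19:44368166-44381352), the neighbouring gene, had 164, 249 and 144 FPKM against 197, 202 and 185 FPKM. The groups overlapped through replicate b (-0.11, limma adjusted p = 0.636), and Scd2 was called lower without it (-0.34).

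Ratios of 2 genes within a library do not depend on the scale of the library. They were picked after the values were seen and are given as a description. Sc4mol over Fasn was 3.05, 4.46 and 3.39 in BME day 5 replicates a, b and c, 1.01, 0.948 and 1.11 on BME + COL1, and 2.91, 2.80 and 3.02 on BME at day 1. Sqle over Fasn was 1.64, 2.02 and 1.94 on BME at day 5, 0.554, 0.510 and 0.579 on BME + COL1, and 1.27, 1.12 and 1.37 on BME at day 1. Both ratios were largest on BME at day 5 and smallest on BME + COL1, with no overlap between the groups. Scd1 over Scd2 was 0.61 and 0.62 in BME day 5 replicates a and c, 0.89 in b and 0.40 to 0.41 on BME + COL1. The median of the sterol synthesis genes minus that of the fatty acid genes, both as log2 deviations from the mean over libraries, was 0.23, 0.39 and 0.28 on BME at day 5, -0.43, -0.50 and -0.42 on BME + COL1 and 0.24, 0.15 and 0.13 on BME at day 1.

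**Figure D4:**
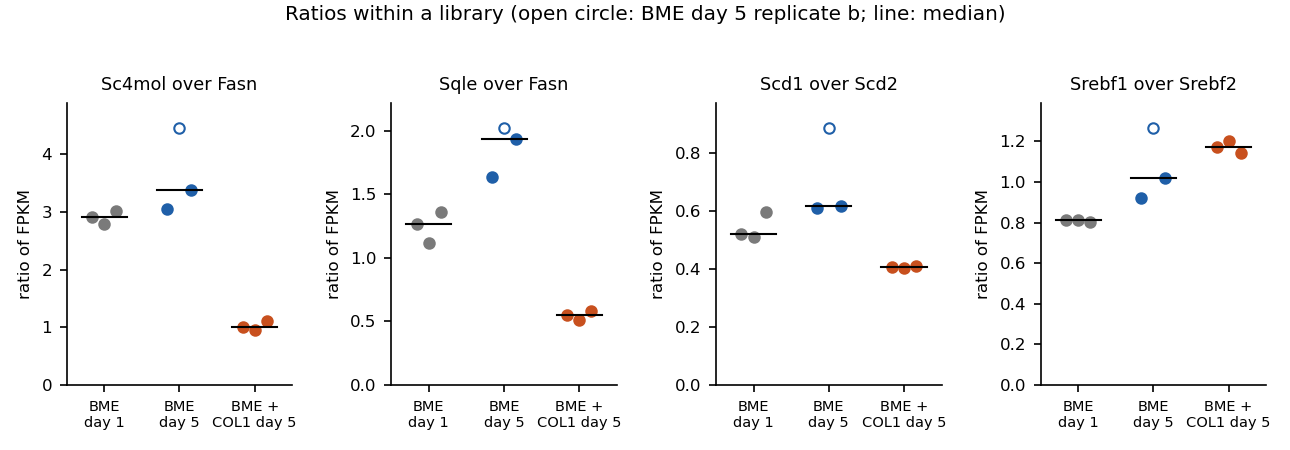
Ratio of the FPKM of 2 genes within each library (circles) by group, with the group median as a line and replicate b of BME day 5 as an open circle. Sc4mol over Fasn and Sqle over Fasn lie near 1 and 0.55 on BME + COL1 and above 2.7 and 1.1 in every BME library, and Srebf1 over Srebf2 is lowest on BME at day 1 (0.80 to 0.81).

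Replicate b of BME day 5 is described apart. It lay above both other replicates in 14 of 17 sterol synthesis genes and below both in 1, whereas over all 10497 genes it lay above both in 15.2% and below both in 74.2%. Its median gap to the other replicates was 0.45 on the log2 scale for sterol synthesis and -0.24 for all genes. The ratio of replicate b to the mean of a and c was 2.49 for Abca1, 2.35 for Tm7sf2, 2.34 for Scd1, 1.95 for Insig1, 1.62 for Scd2, 1.61 for Nsdhl and 1.56 for Lss. It was 1.07 for Srebf2, 1.06 for Fasn and 1.03 for Mvd, and it was 0.64 for Soat1, 0.80 for Elovl6 and 0.81 for Insig2. The gap differed between genes of the same role, as for Insig1 and Insig2. In the same library the 10 cell cycle genes were all below both other replicates, with Mki67 at 4.88 FPKM against 18.5 and 14.6, and their part in the sterol values was not tested. Replicate c of BME day 1 ran the other way. It lay below both other replicates in 14 of 17 sterol synthesis genes and above both in 2, against 23.0% and 61.0% of all genes, with ratios of 0.65 for Fdps and Pmvk, 0.67 for Acat2, 0.68 for Lss and 1.51 for Soat1.

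**Figure D5:**
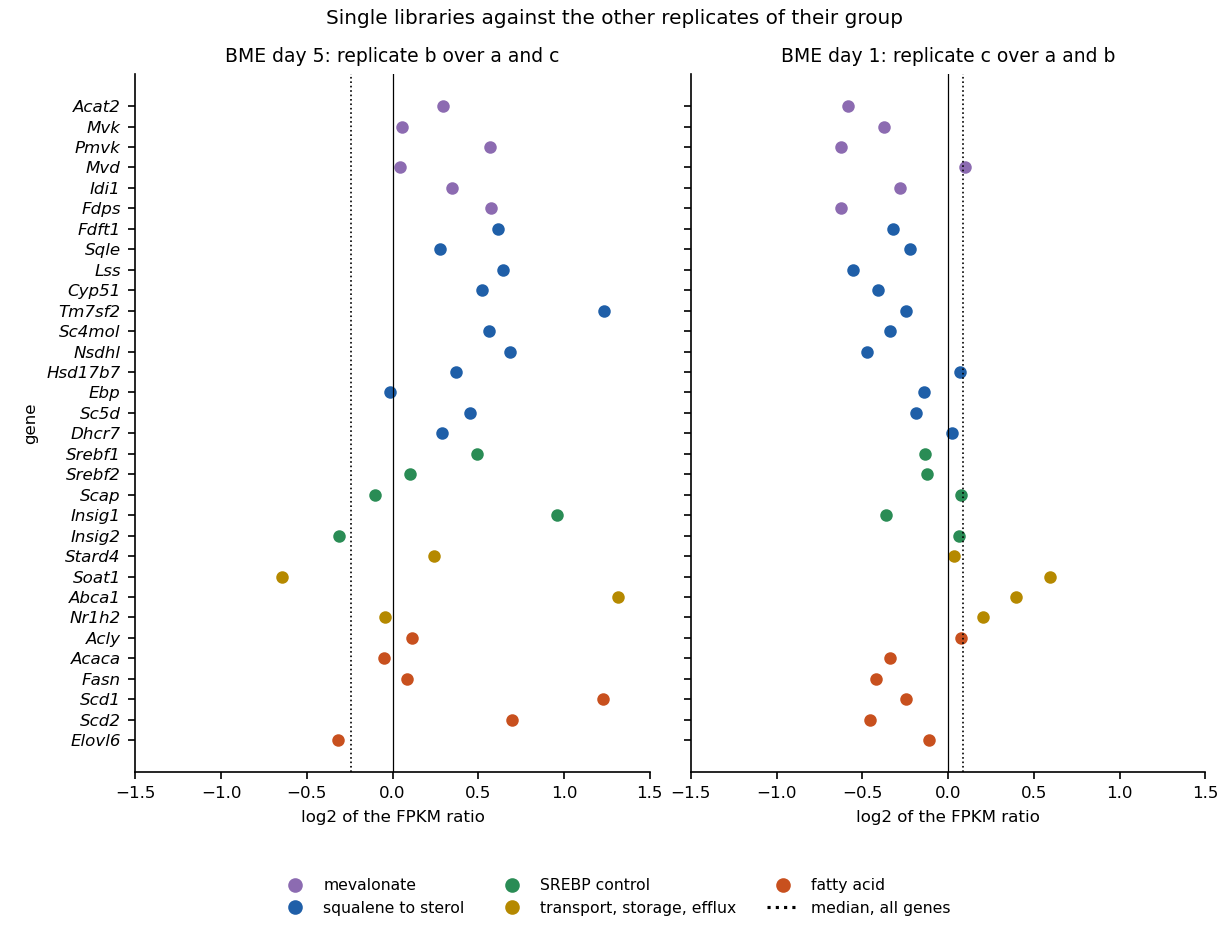
Log2 ratio of 1 library to the mean of the other replicates of its group for each tested gene, for replicate b of BME day 5 (left) and replicate c of BME day 1 (right). The dotted line is the median of all genes. Sterol genes lie mostly right of 0 on the left panel, where the median gene lies at -0.24, and left of 0 on the right panel.

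The comparison of day 5 with day 1 on BME follows the cultures over time on this matrix. None of the 10 cell cycle genes was called between these days (log2 differences of -0.52 to -0.95). Mki67 had 14.1, 17.9 and 15.8 FPKM at day 1 and 18.5, 4.88 and 14.6 FPKM at day 5. Sterol synthesis genes showed few calls, and Fasn, Elovl6 and Acaca fell. Of the 32 genes, 2 (6.25%) rose and 6 (18.8%) fell, and 24 were not called, against 9.09% and 22.2% of all genes, so the shares were near those of all genes. The median of the 32 genes was -0.16 and that of all genes -0.15. Of all genes called, 29.1% were higher with FPKM, 40.7% with TPM, 51.7% with median-ratio factors, 48.1% with quantile normalization, 54.8% without short genes and 42.2% with only the 6 libraries compared. Elovl6 went from 24.2, 22.4 and 21.6 FPKM to 15.7, 11.3 and 12.5 FPKM and fell by 0.80 (SE 0.12, limma adjusted p = 0.00221), a call kept under every alternative tried. Acaca went from 18.7, 19.1 and 15.0 FPKM to 14.6, 13.2 and 12.8 FPKM and fell by 0.37, a call lost under all 4 other scalings, with only the 6 libraries compared and without BME day 1 replicate a or b or BME day 5 replicate c (limma adjusted p of 0.0686 to 0.176). Fasn went from 67.9, 69.7 and 51.4 FPKM to 44.9, 43.1 and 36.3 FPKM and fell by 0.60 (SE 0.13, limma adjusted p = 0.0122). That call was lost with quantile normalization, without genes under 300 nt, with only the 6 libraries compared and without replicate a or b of BME day 1, with limma adjusted p between 0.0506 and 0.0696. Srebf1 rose from 32.0, 31.1 and 28.8 FPKM to 38.5, 54.3 and 38.8 FPKM, by 0.50 (SE 0.13, limma adjusted p = 0.0207), and by 0.33 without replicate b. With only the 6 libraries compared, or without any of the BME day 1 replicates, its limma adjusted p was 0.0522 to 0.0739. Abca1 rose from 0.91, 0.934 and 1.21 FPKM by 1.14 (SE 0.32, limma adjusted p = 0.0278), and by 0.72 without replicate b. It is 1 of the 2 genes counted as risen, but it was tested only through its high BME day 5 values. Its call is therefore not independent of the filter. The Abca1 call was lost with only the 6 libraries and without BME day 1 replicate a or b (limma adjusted p of 0.0819 to 0.0849).

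The sterol genes of this comparison depended on replicate b of BME day 5. Of 17 sterol synthesis genes, 2 fell, Pmvk by 0.63 and Idi1, which isomerises the isoprene unit, by 0.40, and none rose. Both calls were lost under all 4 other scalings, with only the 6 libraries compared and on leaving out any 1 library other than BME day 1 replicate c and BME day 5 replicate b. Without replicate b, 6 of 17 fell, Cyp51, Sc4mol, Nsdhl and Sc5d in addition, and 12 of all 32 genes fell (37.5%, against 25.0% of all genes). Without replicate c of BME day 1, 4 sterol synthesis genes and 7 of the 32 fell, and without any 1 of the BME + COL1 libraries, 0 and 3. These were 21.9% and 9.38% of the 32 genes, against 13.7% and 14.7% to 15.5% of all genes. In the main fit 22.2% of all genes fell. Insig1, with 92.9, 80.7 and 67.4 FPKM at day 1, fell by 0.64 without replicate b and differed by -0.32 with it (limma adjusted p = 0.294). Scd1 differed by 0.01 with replicate b and fell by 0.40 without it (limma adjusted p = 0.0109). Sqle had 85.9, 77.9 and 70.2 FPKM at day 1, in the range of day 5. Sqle (-0.02), Mvd (0.08), Srebf2 (0.11), Nr1h2 (-0.03) and Stard4 (-0.00) were not called with or without replicate b. Soat1, with 14.7, 13.7 and 21.4 FPKM at day 1 and 12.2, 7.85 and 12.4 FPKM at day 5, fell by 0.61 (limma adjusted p = 0.045). The call was lost without the filter, without an intensity trend, with only the 6 libraries and without any 1 library other than BME day 5 a and c (-0.40 to -0.74).

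On BME + COL1 at day 5 most sterol genes were lower than on BME at day 1. This comparison shares its libraries with the others and is given beside them. Of the 32 genes, 21 (65.6%) were lower and 2 (6.25%) higher, against 31.8% and 34.2% of all genes. Of all genes called, 51.8% were higher with FPKM, 35.1% with TPM and 35.9% without short genes. Of 17 sterol synthesis genes 13 were lower, and all 4 tested genes of transport and efflux were lower. Among these 4 is Abca1, which was tested only through its high values on BME at day 5, a group outside this comparison. The Abca1 call (-1.02) was lost with a pseudocount of 1 FPKM, with quantile normalization (-0.15) and without replicate c of BME day 1 or of BME + COL1. The Soat1 call (-0.60) was lost without the filter, without replicate c of BME day 1 and without any 1 of the BME + COL1 replicates. Among sterol synthesis genes, the calls of Acat2, Mvk and Lss were lost without replicate a or b of BME day 1, those of Acat2 and Mvk also without replicate b or c of BME + COL1, and that of Acat2 also without BME + COL1 replicate a, without BME day 5 replicate a, without the filter and with median-ratio factors. Tm7sf2 had 10.3, 9.26 and 8.24 FPKM on BME at day 1 and Nr1h2 18.0, 16.6 and 19.9 FPKM, all above every BME + COL1 library. Tm7sf2 was 1.59 lower, Sc4mol and Insig1 1.06, Nsdhl 1.03, Cyp51 0.93, Nr1h2 0.91, Sqle 0.73 and Srebf2 0.62. Srebf1 was not called (-0.09), so that Srebf1 over Srebf2 was 0.80 to 0.81 on BME at day 1 and 1.14 to 1.20 on BME + COL1. Fasn was 0.45 higher (SE 0.13, limma adjusted p = 0.0141) and Ebp 0.23 higher with FPKM. With TPM, with quantile normalization and without short genes neither was called, nor was Ebp with median-ratio factors. The Fasn call was also lost without replicate b of BME + COL1 (0.40, limma adjusted p = 0.0551). Scd1 was not called (-0.65, limma adjusted p = 0.0678) but was called lower with TPM, quantile normalization, without short genes, with only the 6 libraries and without replicate b or c of BME day 5. Scd2 (-0.24) was not called, and Elovl6 (0.15) was not called and changed sign with TPM and without short genes.

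Genes that border on these routes were examined as 7 lists, between BME and BME + COL1 at day 5, with FPKM only. Ebp, at -0.37 with FPKM, was not called under any of the 4 other scalings. Falls of about that size in these lists may likewise depend on the scale, which was not examined. Of 6 tested genes of lysosomal cholesterol release and transfer, 4 were higher and 1 lower on BME. Lipa, the lysosomal acid lipase that frees cholesterol from its esters, had 147, 129 and 158 FPKM against 23.7, 24.8 and 23.0 FPKM (difference 2.59), and the sterol-binding protein gene Osbp was 0.31 lower. Of 5 genes of LXR and lipoprotein handling, 3 were higher and 2 lower, with Pltp, a phospholipid transfer protein, at 2.68 and the lipoprotein receptor Scarb1 at -0.80. The other gene called lower was Lpcat3 (-0.31). Nr1h3, the LXR alpha gene, was 2.51 higher and is named after its value was seen. Of 6 genes of SREBP cleavage and degradation at the endoplasmic reticulum, 2 were higher, led by the site-1 protease Mbtps1 (0.37), and 1 was lower, Erlin1 (-0.71).

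Of 10 genes that use isoprenoids outside the sterol route, none was called higher and 6 were called lower on BME. The 6 included small falls of Coq2 (-0.42) and Fnta (-0.29), given with FPKM only. The largest difference was that of Pdss1, which builds the ubiquinone side chain, at -2.39. With 2.62, 0.835 and 1.93 FPKM on BME at day 5 and 8.55, 9.03 and 9.35 FPKM on BME + COL1, the groups were far apart. Of 15 genes of fatty acid and triglyceride supply, 9 were higher and 2 lower, from Acacb, the carboxylase isoform at mitochondria (2.83), to Gpam, which starts glycerolipid synthesis (-0.29). Acacb had 2.66, 3.02 and 2.68 FPKM on BME at day 5 and 0.36, 0.28 and 0.284 FPKM on BME + COL1, opposite in direction to Acaca. Of 10 genes of fatty acid oxidation, 7 were higher and none lower, led by the pyruvate dehydrogenase kinase Pdk4 (4.60, with 3.43 to 7.04 FPKM against 0.0849 to 0.143). All 3 tested lipid droplet genes were higher, led by the triglyceride lipase Pnpla2 (1.05). No test of a list was made, and the shares of all genes given above are the background for these counts. Between days on BME, 4 of 15 genes of fatty acid supply rose and 2 fell, and 3 of 10 isoprenoid genes fell. Of 10 oxidation genes 2 rose, and of 3 lipid droplet genes 1 rose. Of 5 LXR and lipoprotein genes 2 rose and 2 fell, and of 6 lysosomal genes 1 rose and 1 fell. Of 6 SREBP cleavage genes none was called. Over all genes 9.09% rose and 22.2% fell. Between BME + COL1 day 5 and BME day 1, 6 of 10 isoprenoid genes were higher and none lower. Of 15 supply genes 10 were lower and 2 higher, and of 5 LXR and lipoprotein genes 3 were lower and 1 higher. Lower without any higher were 7 of 10 oxidation genes, 5 of 6 lysosomal genes, all 3 lipid droplet genes and 1 of 6 SREBP cleavage genes. Over all genes 34.2% were higher and 31.8% lower.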

How the data were processed

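D2.0R cells were freed from the matrices by the authors and total RNA was sequenced from 3 biological replicates per group by Illumina sequencing with a directional kit. Tools in the submitters' processing notes were TopHat2 2.0.8, Trimmomatic 0.30, CASAVA 1.8.4 and Partek, with builds mm9 and NCBIM37. The deposited files hold FPKM for 30563 RefSeq transcripts, written by Cufflinks for the authors. Its version and strand setting are not given in the sources used here, and no raw read numbers were used. FPKM is scaled by mapped fragments, and the main fit used it without further scaling between libraries. The authors tested genes in Partek on the alignments, which was not repeated here.

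FPKM of all transcripts were summed by gene symbol, and those averaging 1 FPKM or more were kept. The values log2(FPKM + 0.1) were fitted with limma 3.58.1 (R 4.3.3) using 3 group means, an intensity trend and all 9 libraries (6 residual degrees of freedom). Two-sided p-values of each comparison received the Benjamini-Hochberg adjustment over its 10497 genes. The fit was tested on simulated data. Tables and figures were made with matplotlib 3.10.9, numpy 2.4.6, pandas 2.3.3 and Python 3.11.15. Start-region sequences came from RefSeq for GRCm38.p6 by gene symbol, whereas gene positions are those of the files (mm9).

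Genes, role groups and lists were chosen with earlier results of these data known. Named in every library were Hmgcs1, Sqle, Insig1, Srebf1, Srebf2, Abca1, Abcg1, Fasn, Scd1 and Scd2, and in each role, where the mean reached 5 FPKM, the 2 genes with the largest absolute difference between BME and BME + COL1 at day 5 and the 1 with the largest between days on BME. Of each bordering list the largest called rise and fall were named. Acly, Acaca, Ebp and the other genes given with values were named after their values were seen. Alternatives were a pseudocount of 1 or 0.01 FPKM, a filter at 5 FPKM or none, scaling by TPM, quantiles or median ratios, omission of genes under 300 nt, the most abundant transcript, only the 6 libraries compared, no intensity trend, a replicate block and leaving out each library. In fits that leave out a library the gene set was kept.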

Additional observations from a re-analysis of the deposited data

How the results depend on the processing

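Of 2013 repeats of single-gene differences under the alternatives, 1851 kept their side of the threshold, of which 1792 kept their sign and 59, all not called, changed it. A further 97 lost a call, 64 gained one and 1 turned sign with a call, Scd1 between days on BME without BME day 5 replicate b (-0.40). Over all left-out libraries that value ran from -0.40 to 0.25. Between BME and BME + COL1 at day 5, the genes that lost or gained a call were Lss, Ebp, Acaca, Scd1, Scd2, Pmvk, Sc5d, Scap, Dhcr7, Idi1, Mvk and Fdps, as given above, with Sc5d also gained without BME day 5 replicate c (0.40). Sterol synthesis genes called lower came to 0 with each of the 4 other scalings (TPM, median-ratio, quantile, no short genes). Fatty acid genes called higher came to 2 under each of them, and all 32 genes called lower to 2 without short genes. The cause of these shifts was not tested.

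Between days on BME, genes called lower came to 3 with TPM, 3 with median-ratio scaling, 2 with quantile normalization, 2 without short genes and 1 with only the 6 libraries compared. Of all genes, 21.3%, 17.5%, 19.5%, 15.7% and 5.89% were called lower in these settings, in that order, against 22.2% in the main fit. Genes called higher came to 4 with quantile normalization, 1 with a minimum mean of 5 FPKM and 0 with only 6 libraries. Sterol synthesis genes called lower came to 1 without the filter and to 0 under all 4 scalings and with only 6 libraries. Fatty acid genes called higher came to 1 with quantile and median-ratio scaling or no short genes, and those called lower to 1 with quantile normalization, without short genes and with only 6 libraries. All genes called higher ranged from 4.31% with only 6 libraries to 19.1% without short genes, against 9.09%.

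Between BME + COL1 day 5 and BME day 1, genes called higher came to 0 with TPM and quantile scaling and without short genes and to 1 with median-ratio scaling. Of all genes, 25.1%, 35.4%, 26.0% and 36.3% were called higher in these settings, in that order, against 34.2% in the main fit. Sterol synthesis genes called higher came to 0 under all 4 scalings. Fatty acid genes called higher came to 0 with TPM, quantile scaling and without short genes, and to 2 with a pseudocount of 1 FPKM, a minimum mean of 5 FPKM and only 6 libraries. Those called lower came to 2 with TPM, quantile scaling, without short genes and with only 6 libraries.

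Leaving out 1 library gave, between BME and BME + COL1 at day 5, 16 to 19 genes higher and 4 to 6 lower, 8 to 10 and 1 to 2 of sterol synthesis, and 1 to 2 and 3 to 4 of the fatty acid genes. Between days on BME it gave 0 to 3 higher and 1 to 12 lower, 0 and 0 to 6 of sterol synthesis, and 0 to 1 and 1 to 5 of the fatty acid genes. The 12, 6 and 5 came without BME day 5 replicate b, and 1, 0 and 1 without BME day 1 replicate a or b. Between BME + COL1 day 5 and BME day 1 it gave 1 to 3 higher and 17 to 23 lower, 1 and 10 to 14 of sterol synthesis, and 0 to 2 and 1 to 2 of the fatty acid genes.

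The labels give replicate letters only and do not say whether cultures of the same letter were set up together. Deviations of libraries with the same letter correlated at -0.23 to 0.096 across genes, and those with different letters at -0.18 to 0.18. With a replicate block, 2 sterol synthesis genes were called lower and 2 fatty acid genes higher between BME and BME + COL1 at day 5, and 2 fatty acid genes higher between BME + COL1 day 5 and BME day 1. Most calls here rest on 3 cultures a group, BME + COL1 replicates lay closer together (median absolute log2 differences of 0.0492 to 0.0819) than those of BME day 5 (0.0899 to 0.290), and the fit pools both. Values as low as those of Abcg1 carry Cufflinks intervals that reach up to 108% of the value to either side.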

Other observations

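Transcript shares are given for 3 genes, picked after their values were seen, that have 2 annotated transcripts each. For Fdps, the farnesyl diphosphate synthase, the transcript of 1461 nt with 11 exons took 5.5% to 5.8% of the FPKM of the gene at day 1, and at day 5 its share was 6.0% to 6.2% for BME and 3.0% to 4.0% for BME + COL1. For Scap, the transcript of 4286 nt took 22.1% to 29.2% at day 1, and at day 5 27.0% to 32.1% for BME and 18.4% to 24.1% for BME + COL1. For Acly, the transcript of 4427 nt took 38.3% to 39.2% at day 1, 41.3% to 43.7% for BME at day 5 and 41.8% to 46.2% for BME + COL1. The shares of Fdps and those of Scap did not overlap between BME and BME + COL1 at day 5, and those of Acly did. Cufflinks estimates such shares from reads on shared exons, and no test was made.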
